A study of Mus musculus with 36 samples.

Results

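The 34 genes described here encode proteins of synaptic vesicles and of the machinery that releases neurotransmitter. They were chosen by name from textbook roles, not by their values, though with earlier results of these data known. Of the 52636 genes in the table, 25572 passed the filter on low values for testing, all 34 among them. The RNA came from the anterior cingulate cortex (aCC, right side), punched out of the brains of 36 female mice and sequenced as 1 library per mouse. The mice carried the strain label C57BL/6NTac-Brd1, were 8 to 11 weeks old, and were either wild type (WT) or heterozygous for a targeted allele of Brd1 (Brd1+/-), which encodes a chromatin reader of histone acetyltransferase complexes. Injections under the skin held either saline alone (vehicle) or the tricyclic antidepressant imipramine (IMN) at 10 mg/kg, which gave 8 libraries of WT vehicle and 10 of WT IMN, and 9 each of Brd1+/- vehicle and of Brd1+/- IMN. Mice of all groups had been injected and put through behavioral tests, a forced swim being the last, before their brains were taken, so no group was untested. A punch of cortex holds neurons, glia and vessels together.

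Neurotransmitter is stored in vesicles that dock at the active zone of the presynaptic terminal, where SNARE proteins pull vesicle and plasma membrane together and synaptotagmins, the calcium sensors, set off fusion. Complexins hold the SNARE complex ready, Munc13 and RIM proteins prime vesicles, and synapsins tie the reserve pool together. Several of these proteins come as paralogues that different neurons use in different amounts: fast-spiking parvalbumin interneurons are known for Syt2, Vamp1 and Cplx1, and excitatory cortical neurons for Slc17a7 and Cplx2.

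The values are TPM, a measure of transcript abundance scaled for transcript length and for the total of the library, so levels of different genes can be compared. Sequencing depth cannot be read from TPM, and all errors given are therefore the spread over mice. Brd1 itself lay at 26.4 ± 3.03 TPM (SD, n = 8) in WT vehicle, 16.8 ± 2.72 (n = 9) in Brd1+/- vehicle, 23.3 ± 3.43 (n = 10) in WT IMN and 16.8 ± 2.1 (n = 9) in Brd1+/- IMN. The vehicle groups did not overlap for Brd1 and the IMN groups did. Mitochondrially encoded genes took 21.7% to 30.5% of a library's TPM, and each library held 24685 to 25517 genes above 0. In 4 libraries markers of other cells or regions stood apart. Brd1+/- vehicle 6 had the highest mean levels of 12 striatal and of 6 choroid plexus markers, at 5.92 and 5.45 on the log2(TPM + 0.5) scale, beside group medians from 2.89 to 3.03 and from -0.57 to -0.36. WT vehicle 1, Brd1+/- vehicle 7 and Brd1+/- IMN 6 had the highest Pvalb, the parvalbumin gene, of their groups, at 182, 176 and 215 TPM.

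The release genes spanned a wide range of levels. Together they took between 0.993% and 1.49% of a library's TPM, with a median of 1.2%. Of the 34 genes, 21 had a mean of at least 100 TPM and 7 a mean under 20 TPM. Snap25, the SNARE of the plasma membrane, was highest, with 1882, 2858 and 4152 TPM as the lowest, median and highest library. Vamp2, the main vesicle SNARE of the forebrain, followed at 1109, 1313 and 1611 TPM. Slc17a7, the vesicular glutamate transporter of cortical neurons, ran from 395 to 1652 TPM around a median of 1148. Syp, which encodes the vesicle membrane protein synaptophysin, had a median of 959 TPM and Syt1, the calcium sensor of fast release, a median of 741 TPM. Snap25 exceeded Vamp2, and Syp exceeded Syt1, in 36 of 36 libraries, while Vamp2 exceeded Slc17a7 in 34 and Slc17a7 exceeded Syp in 29. Of the 33 neighbouring pairs in the order of mean TPM, 4 kept their order in all 36 libraries, 20 (these included) in 25 or more and 13 in 24 or fewer. Among the last, Cplx2 exceeded Nsf in 15 libraries, Syngr1 exceeded Stx1a in 16 and Syt7 exceeded Unc13a in 17, and the order of these neighbours changed from mouse to mouse.

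**Figure D1:**
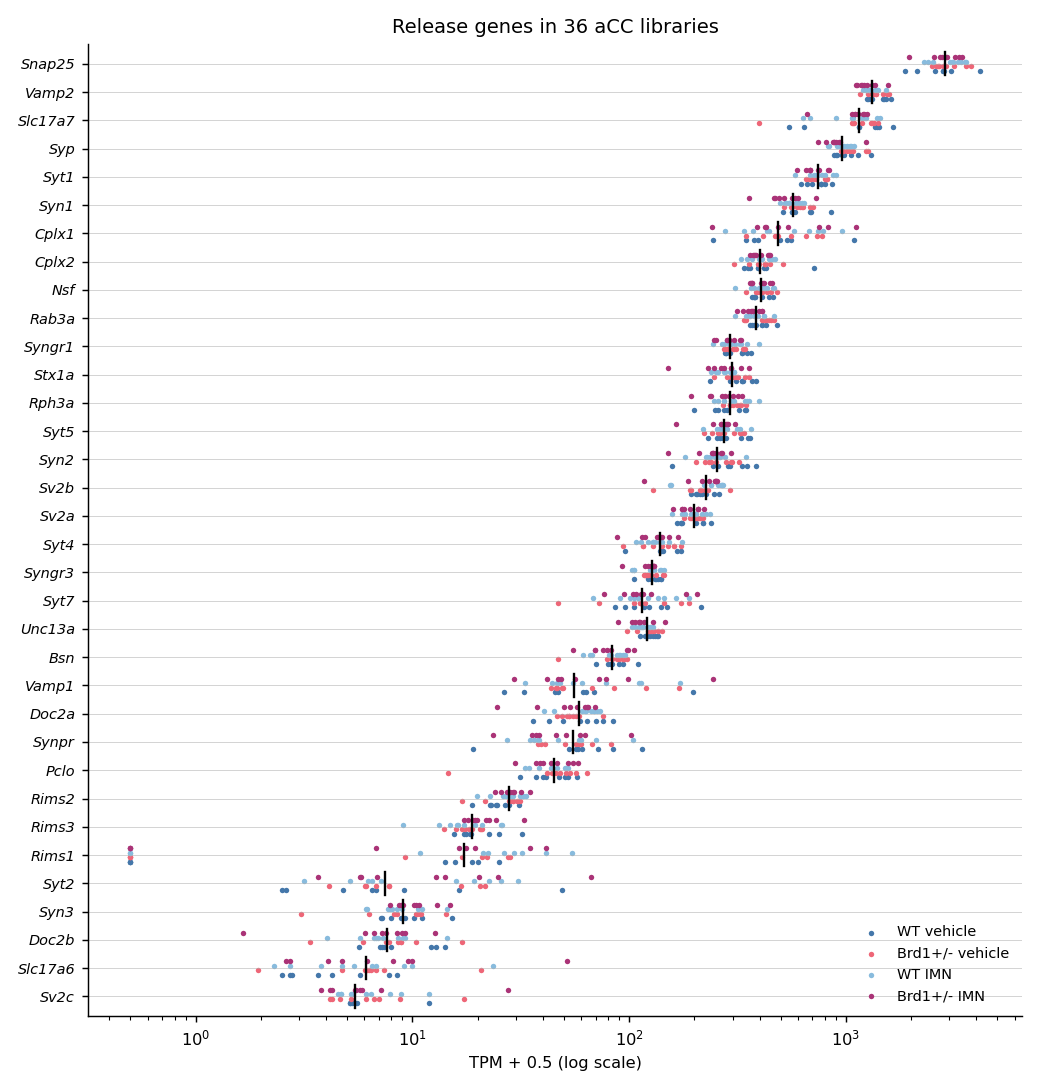
TPM + 0.5 on a log axis for each of the 34 release genes in the 36 aCC libraries, with 1 point per library, coloured by group, and a black bar at the median over libraries. Snap25 sits highest at a median of 2858 TPM, the 4 groups lie on top of each other in every row, and Rims1 is split between libraries listed at 0 and libraries up to 53.9 TPM.

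At the low end stood Sv2c, a minor isoform of the vesicle glycoprotein SV2, with 3.29, 4.94 and 27.2 TPM as lowest, median and highest library. Slc17a6, the glutamate transporter typical of thalamic and other subcortical neurons, had 1.44, 5.60 and 51.3 TPM. Doc2b, a calcium sensor of spontaneous release, had a median of 7.18 TPM, and Syn3, the least abundant synapsin, a median of 8.52 TPM.

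Paralogues divided their TPM unevenly, and some of these divisions varied strongly between mice. Cplx1 made up 38.8% to 74.7% of the complexin TPM (Cplx1 and Cplx2), around a median of 56.2%. Vamp1 was 2.02% to 17.8% of Vamp1 and Vamp2 together, and Syt2 was 0.275% to 8.83% of Syt1 and Syt2. Slc17a6 was 0.122% to 7.24% of the sum of both glutamate transporters. The shares of Sv2a, Sv2b and Sv2c had medians of 45.5%, 53.2% and 1.23%, and those of Syn1, Syn2 and Syn3 had medians of 68.6%, 30.0% and 1.04%. In each of these families except the complexins and SV2, a single member held most of the TPM in every library.

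Between mice of the same group the release genes varied about as much as other genes. The SD on the log2 scale around the group means had a median of 0.26 over the 34 genes and of 0.27 over all genes tested. It was under 0.3 for 19 members and at least 0.5 for 8. Rims1, which encodes the active zone scaffold RIM1, had the largest SD, 2.65. It was listed at 0 in 11 libraries, 3 of WT vehicle, 3 of Brd1+/- vehicle, 2 of WT IMN and 3 of Brd1+/- IMN, and ran up to 24.5, 27.6, 53.9 and 40.7 TPM in the same order of groups. A value of 0 for a gene that cortical neurons use can be a failed estimate of abundance, so the Rims1 values are given as listed. Next came Syt2 with an SD of 1.19, Slc17a6 with 1.00 and Vamp1 with 0.80.

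The most variable release genes did not vary independently. Vamp1 and Syt2 are the vesicle SNARE and calcium sensor of fast-spiking synapses, Cplx1 is the complexin of such neurons and of others, and Synpr encodes synaptoporin, a relative of synaptophysin. Since Vamp1, Syt2 and Cplx1 moved together and Synpr moved against them, the sequence before their transcription starts is shown. The RefSeq table of promoter windows (GRCm38.p6) matched 24 of the 34 symbols with 35 windows, each of 250 bases before to 50 after a start. Printed are the 250 bases before the start, 5′ to 3′ on the gene's own strand, with GGGCGG or its reverse complement CCGCCC, the core of the GC box bound by Sp1, in capitals. Syt2 and Synpr each have a pair of annotated starts.
Vamp1, chr6:125215331-125215580 (+ strand): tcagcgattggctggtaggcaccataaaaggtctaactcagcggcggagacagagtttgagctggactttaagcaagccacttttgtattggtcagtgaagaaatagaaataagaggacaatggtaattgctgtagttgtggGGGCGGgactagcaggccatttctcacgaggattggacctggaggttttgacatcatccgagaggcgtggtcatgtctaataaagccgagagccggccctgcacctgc
Syt2, start 1, chr1:134646362-134646611 (+ strand): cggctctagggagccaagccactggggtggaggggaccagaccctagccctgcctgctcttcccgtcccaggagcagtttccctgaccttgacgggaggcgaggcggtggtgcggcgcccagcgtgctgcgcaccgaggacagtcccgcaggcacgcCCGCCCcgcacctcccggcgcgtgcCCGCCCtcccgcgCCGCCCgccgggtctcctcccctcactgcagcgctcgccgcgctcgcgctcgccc
Syt2, start 2, chr1:134709050-134709299 (+ strand): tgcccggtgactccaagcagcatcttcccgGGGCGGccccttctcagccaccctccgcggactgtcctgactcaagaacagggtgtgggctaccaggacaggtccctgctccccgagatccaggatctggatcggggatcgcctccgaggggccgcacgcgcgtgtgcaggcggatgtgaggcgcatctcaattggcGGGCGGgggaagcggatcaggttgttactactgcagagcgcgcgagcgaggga
Cplx1, chr5:108550028-108550277 (- strand): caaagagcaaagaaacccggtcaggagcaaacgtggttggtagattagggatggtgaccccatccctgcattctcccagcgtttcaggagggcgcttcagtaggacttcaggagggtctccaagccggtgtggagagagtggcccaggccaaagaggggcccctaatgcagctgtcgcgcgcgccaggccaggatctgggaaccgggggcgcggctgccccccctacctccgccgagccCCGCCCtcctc
Synpr, start 1, chr14:13284530-13284779 (+ strand): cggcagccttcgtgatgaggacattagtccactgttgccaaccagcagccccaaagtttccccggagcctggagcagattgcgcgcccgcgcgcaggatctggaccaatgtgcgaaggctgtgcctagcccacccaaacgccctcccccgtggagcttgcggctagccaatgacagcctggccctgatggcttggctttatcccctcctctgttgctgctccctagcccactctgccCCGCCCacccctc
Synpr, start 2, chr14:13453708-13453957 (+ strand): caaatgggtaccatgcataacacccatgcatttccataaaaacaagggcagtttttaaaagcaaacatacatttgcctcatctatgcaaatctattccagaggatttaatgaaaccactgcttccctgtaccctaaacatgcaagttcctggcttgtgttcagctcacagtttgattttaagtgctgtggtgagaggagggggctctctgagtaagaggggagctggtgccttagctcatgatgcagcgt

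GGGCGG, searched on both strands, was in 21 of the members' 35 windows (60.0%) and in 35.7% of all 32851 windows. Of the printed stretches, only the second start of Synpr lacked it. TATAAA, the TATA box core, was in 5.71% of the members' windows and 13.6% of all windows. TGACGTCA, the cyclic AMP response element, was found in 1 member, Syn1, and in 1.79% of all windows. TTCAGCACC, the left part of the site bound by the neuronal repressor REST, was found in Syn1 and Unc13a and in 0.371% of all windows. None of the 4 motifs contains another. The members' windows had a median GC content of 62.3%, beside 52.7% over all windows. These are matches of letters, and no binding was measured. By GENCODE M21 on GRCm38, Vamp1 lies at chr6:125215551-125245964, Syt2 at chr1:134646677-134762593, Cplx1 at chr5:108518554-108550024 and Synpr at chr14:13284780-13616340. Another annotated gene overlapped 26 of the 34 members and 8 had none. Vamp1 overlaps Tapbpl and Cd27, and Syt2 overlaps Ppp1r12b, each on the opposite strand. Use of strand in the counting is not given in the sources used here, so reads of such neighbours cannot be told apart.

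Over all 36 libraries Vamp1 had 25.9, 55.1 and 243 TPM as lowest, median and highest, a 9.35-fold range. Syt2 had 2.01, 6.99 and 66.2 TPM, a 33-fold range, and Cplx1 had 241, 486 and 1107 TPM. Synpr had 18.5, 54.3 and 114 TPM. The libraries highest in Vamp1, Syt2 and Cplx1 were WT vehicle 1 and Brd1+/- IMN 6, and WT vehicle 1 was lowest in Synpr. Vamp1 varied several-fold within each of the 4 groups, and its group medians of 53.7, 49.1, 57.4 and 55.7 TPM (vehicle WT and Brd1+/-, then IMN WT and Brd1+/-) lay close together.

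Co-variation was measured as Pearson's r and Spearman's rho of log2(TPM + 0.5) around the group means over the 36 libraries, for all 561 pairs of members. Each p is two-sided, from a permutation test with 100000 draws of libraries within groups, and 1e-05 is the smallest p these draws can give. Adjustment was by Benjamini-Hochberg over the 561 pairs. For each of the 10 pairs named below the permutation p of r was 1e-05, its adjusted p was 0.00011, and the p of rho was 1e-05 (adjusted 0.000137).

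The 3 closest pairs joined the genes of fast-spiking synapses. Vamp1 and Cplx1 had r = 0.938 and rho = 0.950, with r from 0.899 to 0.987 within the 4 groups. Syt2 and Cplx1 had r = 0.936 and rho = 0.932, and Vamp1 and Syt2 had r = 0.929 and rho = 0.932. Without the 2 libraries farthest from the median on the x axis, WT vehicle 1 and Brd1+/- IMN 6, these r were 0.917, 0.908 and 0.892, so the relation did not rest on them. Snap25 and Cplx1 followed with r = 0.908 (rho = 0.903), or 0.881 without the libraries farthest in Snap25, WT vehicle 4 and Brd1+/- IMN 3. For each pair, the 2 libraries left out were those farthest from the median of the gene named first. The within-group r of these 4 pairs was at least 0.868.

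Other pairs of genes moved together as well. Syt4, a synaptotagmin that binds little calcium, and Syn2 had r = 0.891 (rho = 0.864, or r = 0.870 without the farthest libraries). Vamp2 and Syp, both abundant vesicle membrane proteins, had r = 0.857 (rho = 0.821, or r = 0.833). Synpr and Syt4 moved against the genes of fast-spiking synapses. The lowest r was that of Cplx1 and Synpr, -0.930 (rho = -0.906), with r from -0.989 to -0.888 within groups. Syt2 and Synpr had r = -0.896 (rho = -0.869), Vamp1 and Synpr r = -0.877 (rho = -0.862) and Vamp1 and Syt4 r = -0.853 (rho = -0.750). Without the farthest libraries these 4 negative r were -0.909, -0.851, -0.823 and -0.771. Within WT IMN the r of Vamp1 and Syt4 was -0.607, the weakest within-group value of the 10 pairs.

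Of the 561 pairs, 169 were positive and 50 negative at an adjusted p under 0.05. The median r was 0.201, beside 0.0305 over all pairs of tested genes and 0.0760 over pairs of genes that averaged 5 TPM or more. An r of at least 0.5 was found for 21.6% of member pairs and 5.19% of the latter pairs, and an r of -0.5 or less for 7.13% and 1.59%. The first principal component took 33.5% of the members' variance and the second 27.7%. On the first, Vamp1 and Syt2 lay at one end (loadings of 0.270 and 0.248) and Syn2 and Syt4 at the other (-0.275 and -0.274). On the second, the most positive loadings were those of Syt1 (0.30), Sv2a (0.285) and Syngr1 (0.283), genes of vesicles in most neurons.

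**Figure D2:**
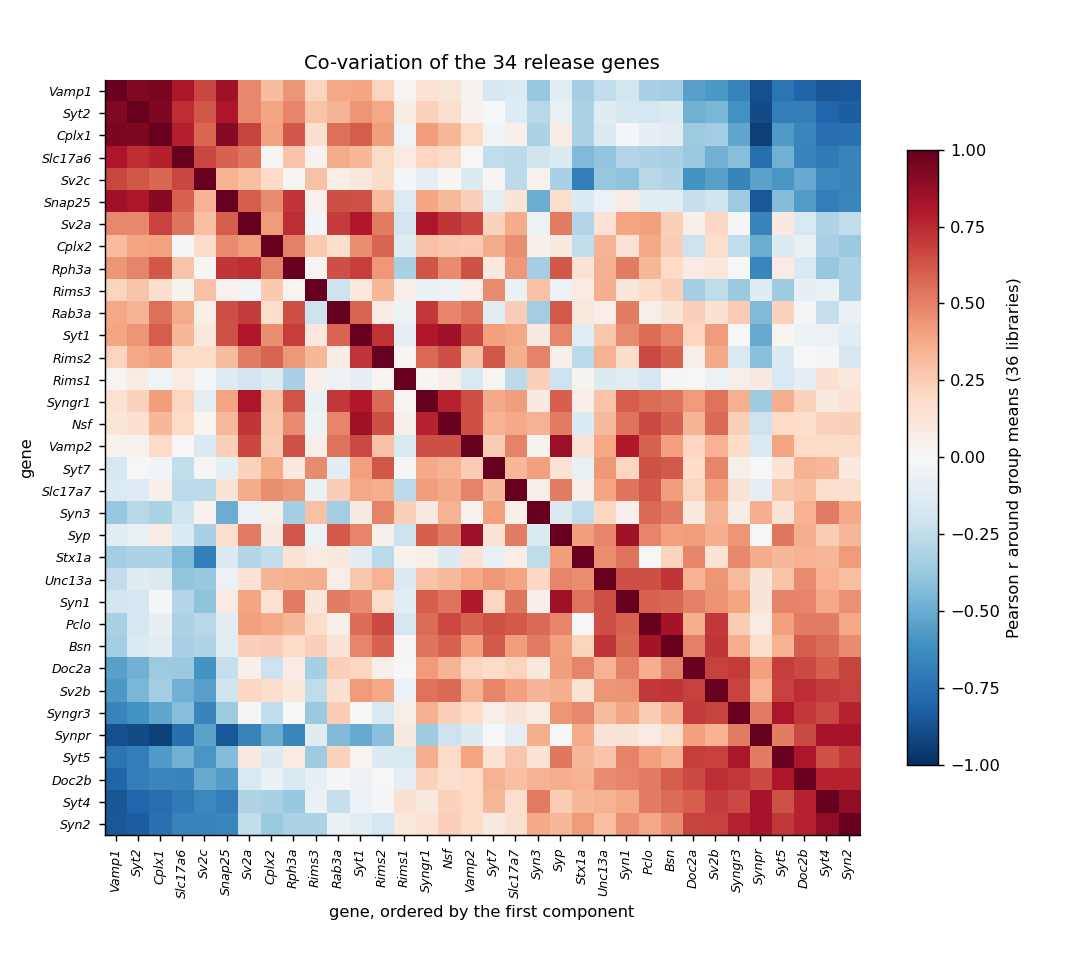
Pearson's r of log2(TPM + 0.5) around the group means over 36 libraries for every pair of the 34 release genes, ordered by the first component, from -1 (blue) to 1 (red). A red block of Vamp1, Syt2, Cplx1, Slc17a6, Sv2c and Snap25 stands at the upper left, a red block from Doc2a to Syn2 at the lower right, and the cells between those blocks are blue, down to -0.930 for Cplx1 and Synpr.

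Among the marker lists, Pvalb had the largest r with Vamp1, Syt2, Cplx1 and Snap25. It ran from 8.31 to 215 TPM over the 36 libraries, a 25.9-fold range, with group medians of 44.5, 40.8, 54.2 and 54.5 TPM in the vehicle WT and Brd1+/- and the IMN WT and Brd1+/- groups. Its highest libraries were those also highest in Vamp1 and Syt2. The r with Pvalb was 0.943 for Cplx1 (rho = 0.930), 0.932 for Syt2 (rho = 0.945) and 0.931 for Vamp1 (rho = 0.963). It was -0.888 for Synpr (rho = -0.856), -0.809 for Syn2 (rho = -0.733) and -0.797 for Syt4 (rho = -0.746). For these 6 genes the permutation p of r and of rho was 1e-05. Over the 442 tests of members against markers the adjusted p was 0.000147 for r and 0.00017 for rho. The 6 genes are those with the highest and lowest r with Pvalb among the members. Pvalb itself was chosen after the values were seen, and the p-values make no allowance for that choice.

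The relation with Pvalb held inside each group. Within-group r of Cplx1 ran from 0.934 to 0.971, and that of Synpr from -0.957 to -0.810. Syt4 had its weakest value within WT IMN, -0.411. Without the 4 libraries that stood apart, r with Pvalb was 0.929 for Cplx1, 0.906 for Syt2, 0.899 for Vamp1, -0.850 for Synpr, -0.716 for Syn2 and -0.684 for Syt4. Without the farthest libraries, WT vehicle 4 and Brd1+/- IMN 6, it was 0.931, 0.926, 0.926, -0.860, -0.749 and -0.768 in the same order. In a punch, more parvalbumin cells and more of these transcripts per cell cannot be told apart.

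By role, the SNAREs split. Snap25 followed Pvalb (r = 0.894) as Vamp1 did, whereas Vamp2 (r = 0.0818) and Stx1a (r = -0.189) had an r near 0. Slc17a6 had r = 0.688 and Slc17a7 r = -0.0444. Among the calcium sensors Doc2b had r = -0.719 and Syt5 r = -0.637. In all, 10 members had a positive and 8 a negative r at an adjusted p under 0.05, and 16 had neither, among them Unc13a, Bsn and Pclo of the active zone. The share of all genes tested with such an r is not given here, so these counts describe the members alone.

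**Figure D3:**
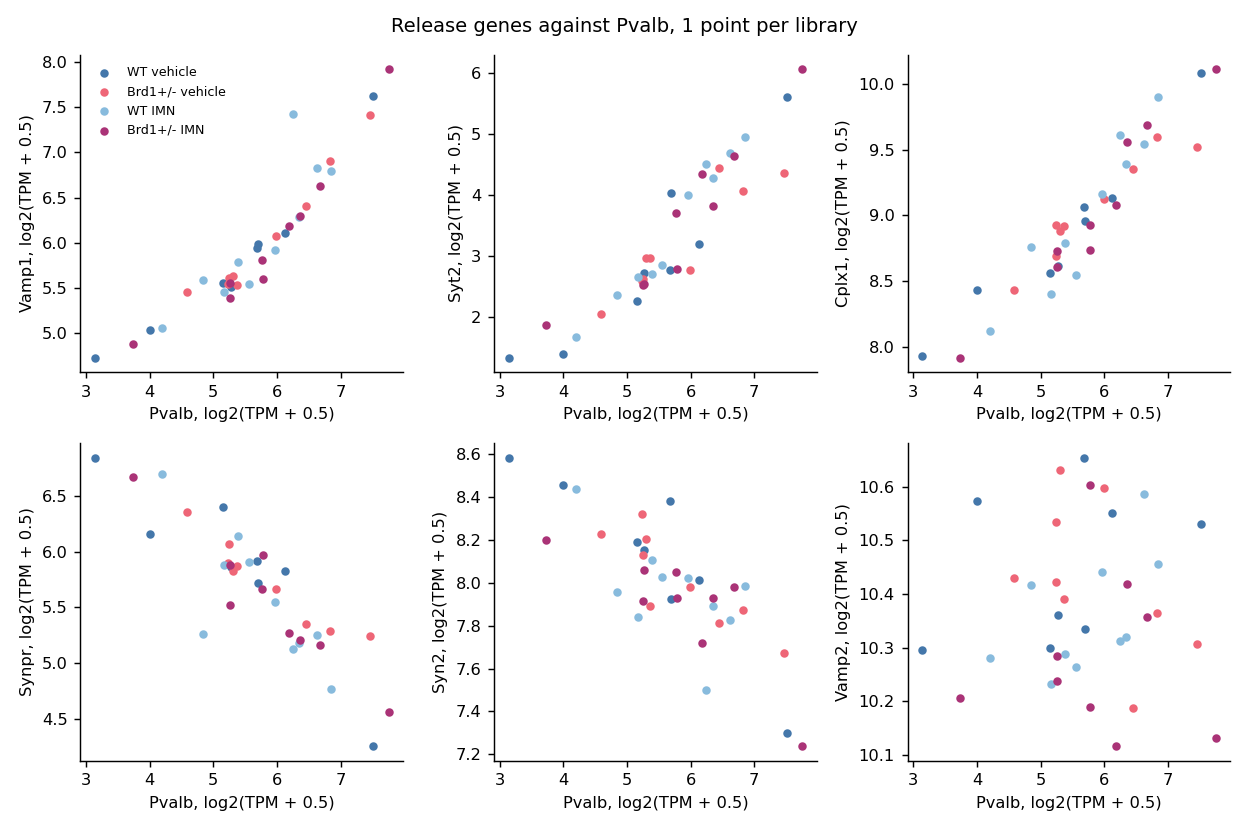
Levels of 6 release genes against Pvalb, each as log2(TPM + 0.5), with 1 point per library coloured by group. Vamp1, Syt2 and Cplx1 climb with Pvalb (r from 0.931 to 0.943), Synpr and Syn2 fall with it (r = -0.888 and -0.809), Vamp2 is spread at all levels of Pvalb (r = 0.0818), and the 4 groups are mixed along each cloud of points.

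With Pvalb as a covariate, an alternative chosen after seeing the data, r was 0.499 for Vamp1 and Cplx1, 0.471 for Syt2 and Cplx1, 0.465 for Vamp1 and Syt2 and -0.606 for Cplx1 and Synpr. Vamp1 and Synpr then had r = -0.30 (permutation test, adjusted p = 0.210). Vamp2 and Syp kept r = 0.858 and Syt4 and Syn2 had r = 0.693. Oligodendrocyte markers, which are typical of white matter, moved with the same members. Their mean level over 10 genes, all above 0 in every library, ran from 3.44 to 7.25 on the log2 scale in WT vehicle, 3.72 to 6.63 in Brd1+/- vehicle, 3.66 to 7.67 in WT IMN and 3.57 to 7.56 in Brd1+/- IMN. The r with it was 0.735 for Slc17a6 (rho = 0.802), 0.701 for Cplx1 (rho = 0.676) and 0.684 for Sv2a (rho = 0.680). It was -0.824 for Synpr (rho = -0.811), -0.713 for Syt4 (rho = -0.682) and -0.671 for Syn2 (rho = -0.623). The permutation p of these r was between 1e-05 and 6e-05, with adjusted p from 0.000147 to 0.000541, and that of rho between 1e-05 and 0.00013, with adjusted p from 0.00017 to 0.00103. Without the farthest libraries, WT IMN 7 and Brd1+/- IMN 6, r was 0.760, 0.750, 0.661, -0.827, -0.655 and -0.663 in the order named, and within groups r kept its sign, with the weakest value 0.376 for Sv2a in Brd1+/- vehicle. Pairs were also fitted with striatal and oligodendrocyte marker levels as covariates. Then r was 0.880 for Vamp1 and Cplx1, 0.880 for Syt2 and Cplx1 and 0.878 for Vamp1 and Syt2. It was -0.845 for Cplx1 and Synpr, -0.754 for Vamp1 and Synpr, 0.868 for Vamp2 and Syp and 0.775 for Syt4 and Syn2. Beyond these covariates, the part of cell makeup or of the position of the punch in the co-variation was not tested.

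Immediate-early genes, which neurons transcribe within minutes of activity, had lower mean levels in the IMN groups. The mean level of 13 of them, all above 0 in every library, was 5.82 ± 0.47 on the log2 scale (SD, n = 8) in WT vehicle, 5.80 ± 0.24 (n = 9) in Brd1+/- vehicle, 5.34 ± 0.27 (n = 10) in WT IMN and 5.30 ± 0.37 (n = 9) in Brd1+/- IMN. Around the group means, r with this level was 0.662 for Stx1a (rho = 0.538), 0.639 for Syt4 (rho = 0.548) and 0.636 for Syngr3 (rho = 0.581). It was -0.676 for Sv2c (rho = -0.551), -0.633 for Vamp1 (rho = -0.399) and -0.570 for Cplx1 (rho = -0.416). The adjusted permutation p of these r lay between 0.000323 (raw 3e-05) and 0.00589 (raw 0.00128), while those of rho lay between 0.00168 (raw 0.00022) and 0.00833 (raw 0.00163) for the first 4 genes, and for Vamp1 and Cplx1 were 0.0580 (raw 0.0218) and 0.0502 (raw 0.0174). Without WT vehicle 1 and Brd1+/- IMN 6, the farthest libraries, r was 0.430 for Stx1a, 0.418 for Syt4, 0.414 for Syngr3, -0.50 for Sv2c, -0.380 for Vamp1 and -0.328 for Cplx1. Within Brd1+/- vehicle the r of Stx1a was 0.0633. Without the 4 libraries that stood apart, 1 member had an r of at least 0.5 and 0 had one of -0.5 or less, against 8 and 5 with all libraries, so these relations rest in part on those libraries.

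Over all markers the number of members with a positive or a negative r at an adjusted p under 0.05 was 16 and 1 for pan-neuronal genes, 15 and 0 for excitatory neuron genes, 9 and 6 for interneuron genes, 8 and 5 for oligodendrocyte genes and 9 and 6 for immediate-early genes. It was 1 and 10 for astrocyte genes, 7 and 8 for microglia, 1 and 12 for endothelial cells, 2 and 0 for striatal genes, 0 and 1 for choroid plexus and 0 and 5 for thalamic genes. The share of mitochondrial TPM had 0 and 11. Pvalb is also a gene of the interneuron list, so the interneuron counts are not independent of those with Pvalb. The neuronal lists thus had more members with a positive r, and the astrocyte and endothelial lists more with a negative r. Shares of all genes tested with such an r are not given here. Whether these counts are particular to release genes was not tested.

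Genotype was compared first in vehicle mice, the comparison that asks what reduced Brd1 does without the drug, after saline injections and behavioral tests. None of the 34 members passed an adjusted p of 0.05 (limma, Benjamini-Hochberg over all genes), where 0% of all genes tested did. Brd1 itself was among the genes that did not pass, although its vehicle groups did not overlap. The study's own edgeR test of the vehicle groups called Brd1 after correction, so the limma test here can miss a real difference. At an unadjusted p under 0.05, 0 members passed beside 3.75% of all genes. The smallest p among the members was that of Slc17a6, with a log2 fold change of 0.55 (SE 0.36, limma adjusted p = 0.9998). Slc17a6 had 2.00, 3.46 and 7.99 TPM as lowest, median and highest in WT vehicle and 1.44, 5.79 and 20.2 TPM in Brd1+/- vehicle, and the groups overlapped throughout. Rims3, a short RIM protein of the active zone, differed by -0.18 (SE 0.13) and Rph3a, the Rab3 effector rabphilin, by 0.13 (SE 0.094). The 95% interval lay within 1.5-fold either way for 24 of 34 members.

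Under IMN, the same comparison had no member past the threshold either. No member passed at an adjusted p under 0.05 (0% of all genes) or at an unadjusted p under 0.05 (3.23% of all genes). Rims3 had the smallest p, with 8.58, 16.3 and 25.3 TPM in WT IMN and 16.9, 19.3 and 32.2 TPM in Brd1+/- IMN. All 9 Brd1+/- IMN libraries lay above the WT IMN mean on the log2 scale, but the groups overlapped, and the log2 fold change was 0.31 (SE 0.16, limma adjusted p = 0.9999; exact permutation p = 0.0907, two-sided). Rph3a differed by -0.18 (SE 0.10) and Syn3 by 0.24 (SE 0.15). With both treatments pooled and treatment as a term, 0 members passed an unadjusted p under 0.05, beside 3.62% of all genes, and 0 an adjusted p, beside 0.00391%. The lowest p were those of Doc2a, a calcium sensor of spontaneous release, at -0.17 (SE 0.12), Syngr1, a synaptogyrin of the vesicle membrane, at -0.07 (SE 0.053), and Slc17a6 at 0.37 (SE 0.31). The vehicle comparison had 1 member at an unadjusted p under 0.05 without WT vehicle 1 (6.61% of all genes) or Brd1+/- vehicle 1 (3.84%). The IMN comparison had 1 without WT IMN 3 (3.39%), 3 without WT IMN 9 (3.54%) and 2 without Brd1+/- IMN 7 (3.35%). Pooled intervals lay within 1.5-fold for 30 of 34 members.

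IMN was compared with vehicle within each genotype to ask what the drug changed. In Brd1+/- mice 0 members passed an adjusted p under 0.05 (0.00782% of all genes did) and 4 an unadjusted p under 0.05, beside 5.52% of all genes. Syp had 949, 1008 and 1260 TPM in Brd1+/- vehicle and 742, 884 and 1241 TPM in Brd1+/- IMN. All IMN libraries but Brd1+/- IMN 7 lay under the mean of vehicle. The log2 fold change of Syp was -0.21 (SE 0.086, limma adjusted p = 0.826; exact permutation p = 0.0254, two-sided). Rims3 had 13.4, 17.7 and 20.5 TPM in Brd1+/- vehicle and 16.9, 19.3 and 32.2 TPM in Brd1+/- IMN, with 7 of 9 IMN libraries above the vehicle mean and overlapping groups. Its log2 fold change was 0.24 (SE 0.11, limma adjusted p = 0.887; exact permutation p = 0.0431). Syn1, the main synapsin, differed by -0.22 (SE 0.10, limma adjusted p = 0.894) and Rph3a by -0.18 (SE 0.087, limma adjusted p = 0.902). With striatal and oligodendrocyte marker levels in the model, 1 member had an unadjusted p under 0.05, beside 6.87% of all genes. The count was 1 without Brd1+/- vehicle 3, 4, 5 or 9 or Brd1+/- IMN 6, beside 4.74% to 5.67% of all genes in those fits. It was 2 without Brd1+/- IMN 2, 3, 5 or 9 (4.98% to 5.39%), 5 without Brd1+/- vehicle 8 (5.82%) and 6 without Brd1+/- IMN 7 (6.3%). The other fits that left out 1 library gave 3 or 4.

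In WT mice 0 members passed an adjusted p under 0.05 (0% of all genes) and 2 an unadjusted p under 0.05, beside 6.60% of all genes. Unc13a, which encodes the priming factor Munc13-1, had 112, 126 and 136 TPM in WT vehicle and 102, 113 and 128 TPM in WT IMN. The mean of vehicle exceeded 9 of 10 IMN libraries, and the groups overlapped. Its log2 fold change was -0.13 (SE 0.052, limma adjusted p = 0.670; exact permutation p = 0.0117). Stx1a, the plasma membrane SNARE syntaxin-1A, had 237, 330 and 383 TPM in WT vehicle and 238, 284 and 305 TPM in WT IMN. The mean of vehicle exceeded all 10 IMN libraries, at a log2 fold change of -0.20 (SE 0.081, limma adjusted p = 0.697; exact permutation p = 0.0275). Syn1 differed by -0.14 (SE 0.085, limma adjusted p = 0.833). Without WT vehicle 1 the count at an unadjusted p under 0.05 was 5, beside 10.6% of all genes in that fit. It was 1 without WT vehicle 2 or 3 (5.81% and 5.55%) and 3 without WT vehicle 5 or WT IMN 8 (6.54% and 7.05%).

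The interaction of genotype and IMN, which asks whether the drug acted differently in Brd1+/- mice, had 0 members at an adjusted p under 0.05 (0% of all genes) and 2 at an unadjusted p under 0.05, beside 3.20% of all genes. They were Rims3 at 0.49 (SE 0.22) and Rph3a at -0.31 (SE 0.14), each with a limma adjusted p of 0.9998. The means of Rims3 were 20.4 ± 5.49 TPM (SD, n = 8) in WT vehicle, 17.7 ± 2.39 (n = 9) in Brd1+/- vehicle, 17.4 ± 5.24 (n = 10) in WT IMN and 21.2 ± 4.70 (n = 9) in Brd1+/- IMN. Those of Rph3a were 284 ± 50.8, 306 ± 22.8, 309 ± 49.9 and 272 ± 44.0 TPM in the same order. Rims3 had its 2 lower means, and Rph3a its 2 higher means, in Brd1+/- vehicle and WT IMN, and the groups overlapped for both genes. Syn3 came next at 0.36 (SE 0.29). The count was 0 without WT IMN 7, beside 3.06% of all genes. It was 1 without WT vehicle 1, 2, 4, 7 or 8 or Brd1+/- vehicle 3, 4, 5 or 7. It was also 1 without WT IMN 2, 4 or 6 or Brd1+/- IMN 2, 3, 6 or 7. In the fits with a count of 1, 2.8% to 4.1% of all genes had such a p.

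With genotypes pooled and genotype as a term, 5 of the 34 members had an unadjusted p under 0.05 for IMN, all lower, beside 9.38% of all genes in either direction, 5.48% lower and 3.90% higher. None passed an adjusted p of 0.05, which 0.274% of all genes did. Stx1a differed by -0.20 on the log2 scale (SE 0.074, limma adjusted p = 0.308), Syn1 by -0.18 (SE 0.067, adjusted p = 0.320), Unc13a by -0.13 (SE 0.049, adjusted p = 0.353), Vamp2 by -0.12 (SE 0.048, adjusted p = 0.387) and Syp by -0.14 (SE 0.058, adjusted p = 0.414). For Stx1a, 10 of 10 WT IMN and 7 of 9 Brd1+/- IMN libraries lay below the vehicle mean of their genotype. Brd1+/- IMN 6 was the lowest library for Stx1a at 151 TPM. Over the 34 members the median log2 fold change was -0.028, beside -0.0023 over all genes tested, and 23 members lay below 0. The 95% interval lay within 1.5-fold for 28 members. Without WT vehicle 1, 8 members passed an unadjusted p under 0.05, 7 of them lower, beside 11.3% of all genes in that fit. With quantile normalization 3 members were lower and 1 higher at an unadjusted p under 0.05, beside 9.91% of all genes in either direction. When mitochondrially encoded genes were left out, 5 were lower and 1 higher, beside 9.72%. Under these scalings the median of the members was 0.0051 and -0.0087, and 20 and 16 of the 34 lay above 0. The immediate-early genes were lower in the same libraries as given above, and their part in these differences was not tested.

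**Figure D4:**
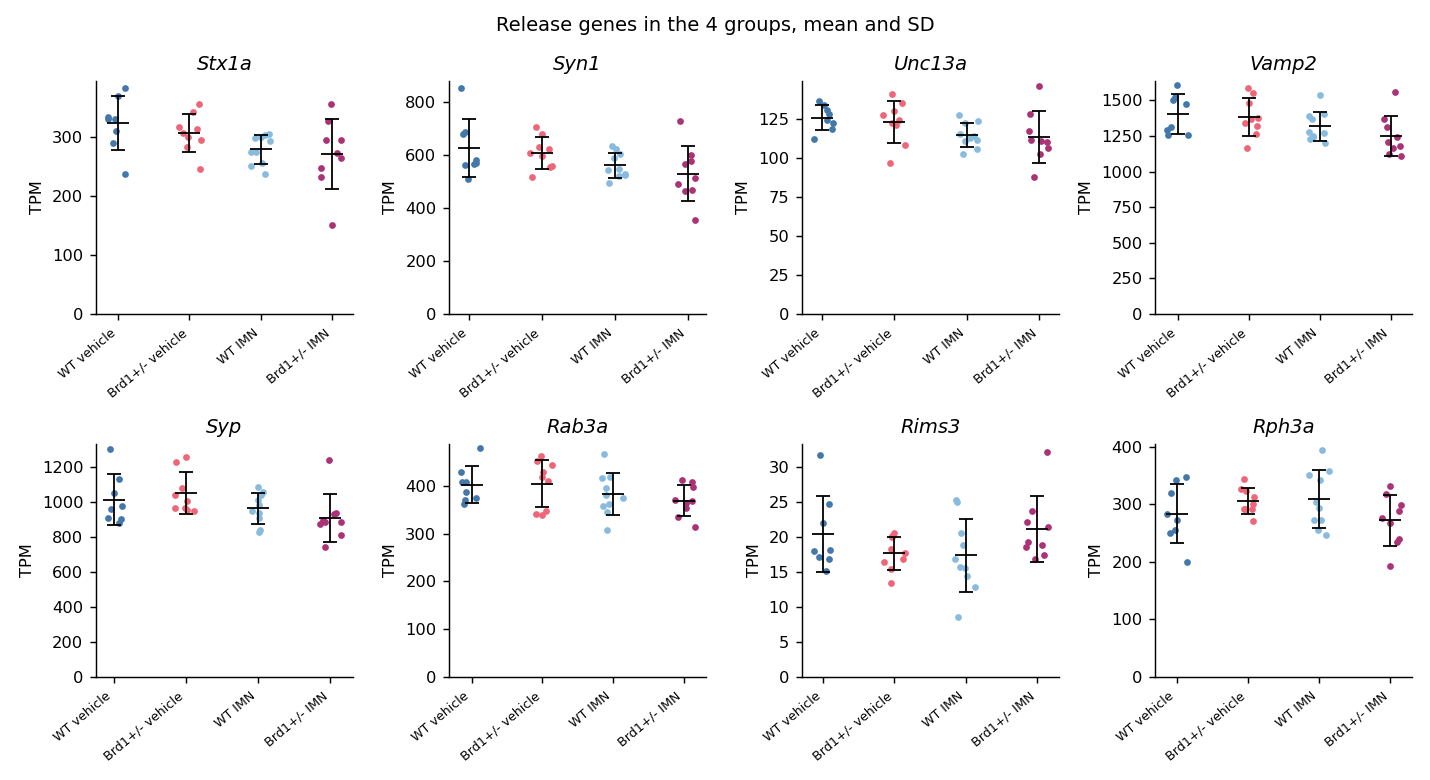
TPM of 8 release genes by group, with 1 point per library, a horizontal mark at the mean and a bar of 1 SD to each side. Stx1a, Syn1, Unc13a and Vamp2 have lower means in both IMN groups than in the vehicle group of the same genotype, and in every panel the groups overlap.

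**Figure D5:**
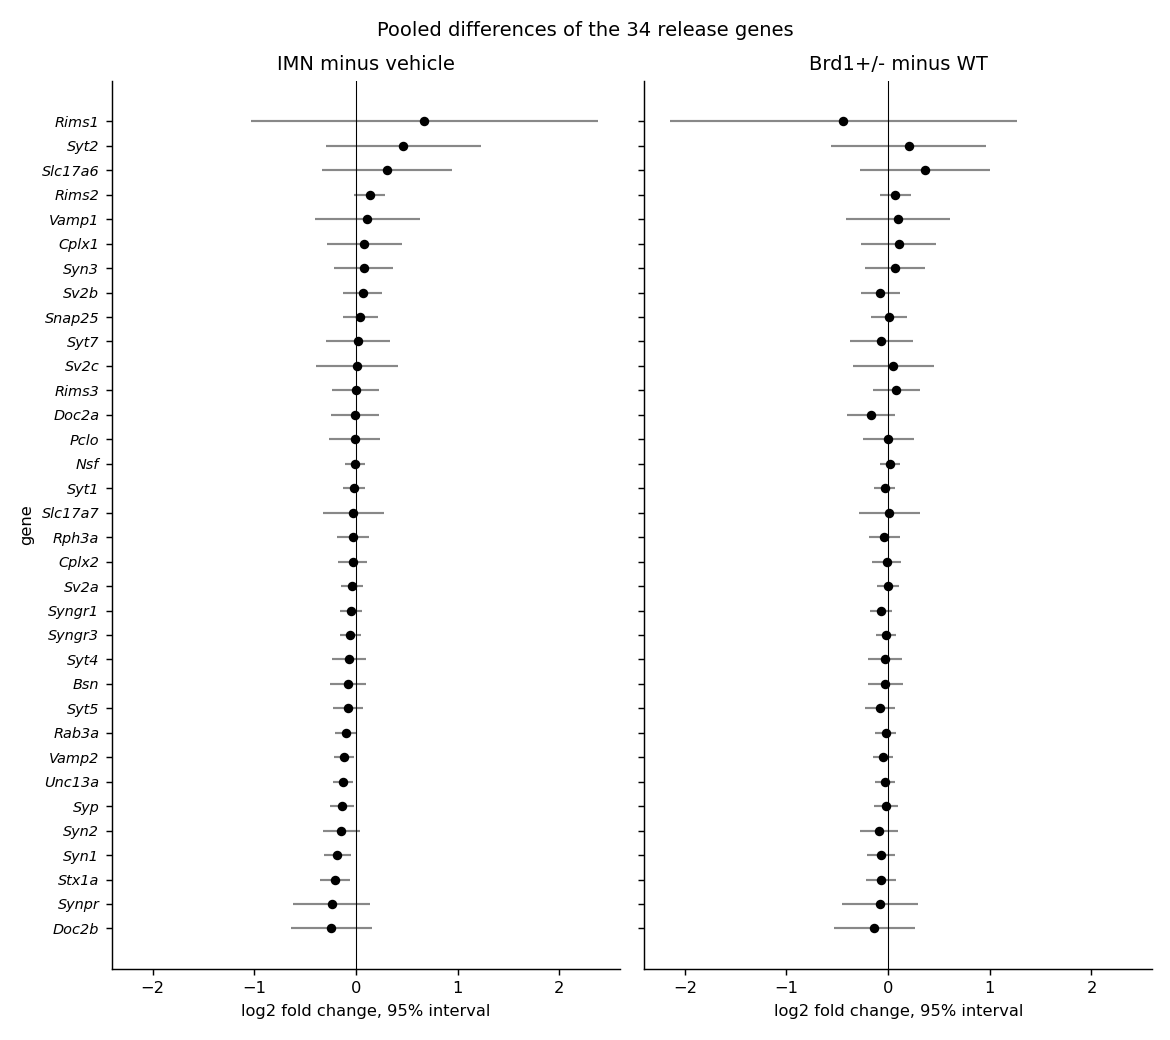
Log2 fold changes of the 34 release genes from limma with 95% intervals, for IMN minus vehicle with genotype as a term (left) and Brd1+/- minus WT with treatment as a term (right), ordered by the left panel. On the left the intervals of Stx1a, Syn1, Unc13a, Vamp2 and Syp lie below 0, on the right every interval crosses 0, and Rims1 and Syt2 have the widest intervals.

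Beyond the 34 genes, 62 other presynaptic genes were tested, all past the filter. Of these, 1 passed an adjusted p of 0.05 in the pooled IMN comparison and 0 in every other comparison. Pacsin1, which encodes an adaptor of vesicle endocytosis, had 321, 326 and 380 TPM in WT vehicle, 266, 318 and 344 in Brd1+/- vehicle, 251, 285 and 338 in WT IMN and 228, 281 and 343 in Brd1+/- IMN. The IMN groups had the lower medians and all groups overlapped. Its log2 fold change was -0.20 (SE 0.046, limma adjusted p = 0.0480). Leaving out 1 library at a time kept its adjusted p under 0.05 in 8 of 36 fits, and over all alternatives it ran from 0.0134 to 0.108. At an unadjusted p under 0.05, 7 of the 62 were lower and 1 higher with IMN, beside 5.48% and 3.90% of all genes. The next smallest p were those of Slc18a2, the vesicular monoamine transporter, at -0.25 (limma adjusted p = 0.170) and Sncb, which encodes beta-synuclein, at -0.21 (adjusted p = 0.289).

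Within genotypes Pacsin1 was among the 3 smallest p of these genes in both. In WT mice Pacsin1 differed by -0.24 with IMN, Lin7b, a scaffold of the presynaptic membrane, by -0.34 and Unc13c, which encodes Munc13-3, by 0.40 (limma adjusted p from 0.419 to 0.485, 5 of 62 at an unadjusted p under 0.05, beside 6.60% of all genes). In Brd1+/- mice Slc18a2 differed by -0.43, Pacsin1 by -0.16 and Sncb by -0.22 (adjusted p from 0.543 to 0.892, 3 of 62, beside 5.52%). Slc18a2 was at 3.56 ± 0.816 TPM (SD, n = 9) in Brd1+/- vehicle and 2.48 ± 0.290 (n = 9) in Brd1+/- IMN.

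For genotype in vehicle mice, Unc13c had 3.38, 3.98 and 5.01 TPM in WT and 4.54, 5.43 and 7.77 TPM in Brd1+/-. All 9 Brd1+/- vehicle libraries lay above the WT vehicle mean, with slight overlap, at a log2 fold change of 0.45 (SE 0.11, limma adjusted p = 0.9998; exact permutation p = 0.000494). Rimbp2, a RIM-binding protein, differed by -0.22 and Svop, a transporter-like vesicle protein, by -0.16, and in all 3 of 62 had an unadjusted p under 0.05, beside 3.75% of all genes. Under IMN the lowest p were those of Lin7b (0.20), Slc18a2 (-0.20) and Syt13 (-0.12), with 2 of 62 at an unadjusted p under 0.05, beside 3.23%. With treatments pooled they were Unc13c (0.27), Itsn1 (0.15) and Svop (-0.13), again 2 of 62, beside 3.62%. The interaction had Lin7b (0.38), Slc18a2 (-0.36) and Dnm3 (-0.43), with 2 of 62, beside 3.20%. Each of these values is a log2 fold change with a limma adjusted p of at least 0.999.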

How the data were processed

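RNA from aCC punches of 36 mice was sequenced as single-end reads on BGISEQ-500. Per the submitters' processing notes and the study's methods, the authors filtered reads (FastQC, Trimmomatic), aligned them to GRCm38 with HISAT2 2.1.0 and estimated abundance with StringTie 1.3.4. The deposited values are TPM made by the authors, and no scaling of one library to another is stated. The methods state a minimum number of clean reads per sample, but not the depth of each, and no counting error was computed from TPM. The study's own edgeR test used data not used here.

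Values were taken as log2(TPM + 0.5), on which every fold change is given, and which understates changes of low genes. Tested were genes that reached 0.1 TPM in 8 or more libraries, with limma 3.58.1 in R 4.3.3 (empirical Bayes with trend, two-sided, Benjamini-Hochberg over 25572 genes). Pairwise comparisons used the libraries of their groups only, and pooled comparisons and the interaction used all 36. Exact permutation tests ran over all arrangements of libraries, and correlation tests over 100000 draws within groups (Python 3.11.15, numpy 2.4.6, scipy 1.17.1, pandas 2.3.3, matplotlib 3.10.9). Both the limma step and the correlation test were tested on simulated data. P-values measure the spread between these mice. Same-numbered libraries of different groups did not deviate together, so replicate numbers were not used as pairs.

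The 34 genes, the 62 other presynaptic genes and the marker lists (pan-neuronal, excitatory, interneuron, parvalbumin, oligodendrocyte, astrocyte, microglia, endothelial, striatal, choroid plexus, thalamic, immediate-early) were chosen with earlier results of these data known. A list's level is the mean log2(TPM + 0.5) of its genes, and the parvalbumin list is Pvalb alone. Named were members with an adjusted p under 0.05, the 3 smallest p per comparison, the 5 highest and 4 lowest means, the 4 largest SDs, the paralogue families, the 6 highest and 4 lowest r, the 3 highest and 3 lowest r with each marker described, and the 3 other presynaptic genes with the smallest p per comparison. Other members named to describe a role, and Pvalb, were chosen after their values were seen.

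The alternatives were pseudocounts of 0.1 and 1, no filter, a mean TPM of 1 or more, median-ratio scaling, quantile normalization, TPM without mitochondrially encoded genes, array weights, striatal and oligodendrocyte scores as covariates, all libraries in 1 fit, a replicate block and leaving out libraries. Pvalb as a covariate and leaving out the 4 libraries that stood apart were added after seeing the data.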

Additional observations from a re-analysis of the deposited data

Results flagged for a closer look

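In 136 sets of 1 member in 1 group, a single library lay far from the others by Dixon's criterion in 19. Chance flags about 1 in 20 groups, or 6.8 of 136, and members that move together are not independent sets. The share of such sets over all genes tested is not given here, so the 19 are not read as particular to the members. Brd1+/- IMN 6, the library highest in Pvalb, was lowest of its group for Stx1a at 151 TPM, Syt5 at 165, Doc2b at 1.16, Sv2b at 117, Syngr3 at 92.6, Syn2 at 150.4 and Slc17a7 at 658 TPM. The same library was highest for Sv2c at 27.2 and Slc17a6 at 51.3 TPM, where the next libraries had 6.67 and 9.49 TPM. WT vehicle 1 was lowest of its group for Syt4 at 95.7, Synpr at 18.5 and Syngr3 at 104 TPM, and highest for Cplx2 at 709 and Sv2c at 11.5 TPM. Brd1+/- vehicle 7 was lowest for the active zone genes Bsn at 46.3 and Pclo at 14.2 TPM and for Slc17a7 at 395 TPM, where the next library had 1070 TPM. Apart from these, Doc2a was highest in Brd1+/- vehicle 9 at 75.3 TPM and Syp in Brd1+/- IMN 7 at 1241 TPM. Of the 19 values, 17 were thus in 3 libraries, each with the highest Pvalb of its group. No value was flagged in WT IMN, where WT IMN 4 had the highest Pvalb, at 115 TPM.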

How the results depend on the processing

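The number of members at an adjusted p under 0.05 was 0 in every comparison and under every alternative, and no called result reversed. The median log2 fold change of the members in the pooled IMN comparison, which no test called, changed sign with quantile normalization (0.0051). The counts at an unadjusted p under 0.05 are small and moved with the processing. The share of all genes at that p in the same fit follows each count in parentheses. For Brd1+/- vehicle against WT vehicle the count was 0 (3.75%). It was 1 once the striatal and oligodendrocyte scores entered the fit as covariates (4.85%). The count was also 1 without the 4 libraries that stand apart (9.11%). For Brd1+/- IMN against WT IMN it was 1 with all 36 libraries in one fit (3.02%). For Brd1+/- IMN against Brd1+/- vehicle, in place of 4 (5.52%), it was 2 with no filter (4.81%) and 2 with quantile normalization (5.59%). It was 2 without mitochondrially encoded genes (5.8%) and 1 with the covariates (6.87%). For WT IMN against WT vehicle, in place of 2 (6.6%), it was 1 with median-ratio scaling (7.14%) and 0 with quantile normalization (7.11%). It was 0 with all 36 libraries in one fit (6.53%), 1 with the covariates (8.54%) and 5 without the 4 libraries (10.6%). The interaction count was 1 with quantile normalization (3.23%) and 1 without the 4 libraries (5.76%). Leaving out 1 library at a time gave 0 to 1 (3.24% to 6.61%) for genotype in vehicle mice and 0 to 3 (2.89% to 4.11%) in IMN mice. It gave 1 to 6 (4.74% to 6.46%) for IMN in Brd1+/- mice and 1 to 5 (5.55% to 10.6%) in WT mice. For the interaction it gave 0 to 2 (2.8% to 4.1%) and for the pooled IMN comparison 5 to 8 (8.37% to 11.3%).

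Replicate numbers do not pair the samples: the correlation of same-numbered deviations exceeded 0.1 in 0 of 8 pairs in vehicle and 1 of 9 in IMN mice between genotypes, and in 0 of 9 pairs in Brd1+/- and 0 of 8 in WT mice between treatments. With the replicate block the count at an unadjusted p under 0.05 was 2 for Brd1+/- IMN against Brd1+/- vehicle, beside 5.13% of all genes. It was 3 for WT IMN against WT vehicle (7.65%) and 3 for the pooled IMN comparison (9.67%), and 0 members passed an adjusted p under 0.05.

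With Pvalb as a covariate the median r of the pairs was 0.274 and 21 negative pairs passed an adjusted p of 0.05, and 33 did without the 4 libraries. Both alternatives were chosen after seeing the data. Leaving out 1 library gave a median r of 0.181 to 0.219, 159 to 178 positive and 44 to 55 negative pairs. Pacsin1 lost its adjusted p under 0.05 with no filter (0.0632), quantile normalization (0.0935), without mitochondrially encoded genes (0.0664), with the covariates (0.108) and with the replicate block (0.0784), and Sncb gained one with Pvalb as a covariate (0.0330). The cause was not tested. The methods give only a minimum depth, and no detection limit was computed for members listed at 0 or at a few TPM.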
